A study of Mus musculus with 25 samples.

Results

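Insulin and insulin-like growth factor signalling in soleus was followed through 10 genes: the ligand Igf1, the binding proteins Igfbp3, Igfbp4, Igfbp5 and Igfbp6, the receptors Insr and Igf1r, the docking proteins Irs1 and Irs2, and the phosphoinositide 3-kinase regulatory subunit Pik3r1. They were chosen by name from the 52636 genes of the count table, and all 10 were found and had enough reads to be tested. RNA came from the soleus, a postural muscle of the lower hind leg, of 25 male and female C57BL/6 mice aged 12 weeks, with 1 library per mouse. WT mice carried floxed Dnmt3a on both alleles (Dnmt3a flox/flox) and no Cre. mD3AKO mice carried the same floxed alleles, in which loxP sites surround exon 19, together with an mCK-Cre transgene. The muscle creatine kinase promoter of this transgene is active late in muscle differentiation, in skeletal muscle and heart, and recombination in satellite cells or the other cell types of the muscle was not measured here. Exercised mice ran for 30 min on a treadmill at a 5% incline and were killed 60 min later, while rested mice spent the bout in a sham treadmill arena. There were 5 rested WT, 7 rested mD3AKO, 7 exercised WT and 6 exercised mD3AKO mice, of which 12 were female and 13 male.

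Insulin and IGF-1 bind related receptor tyrosine kinases, which phosphorylate the docking proteins IRS1 and IRS2. These recruit phosphoinositide 3-kinase through its regulatory subunits, and the lipid it makes activates AKT. In muscle the pathway stimulates glucose uptake, glycogen storage and protein synthesis, and AKT keeps FOXO transcription factors out of the nucleus. FOXO factors in turn are known activators of the genes for IRS2 and the insulin receptor. IGF-binding proteins hold IGFs in the extracellular fluid and can block or prolong their action.

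Levels are given as CPM, the reads of a gene relative to the reads of its library and scaled by trimmed mean of M values (TMM) factors, or as RPKM, which divides CPM by the exon length of the gene so that genes can be compared. Differences are given on the log2 scale. Assigned reads ranged from 22671457 to 37431801 per library, with a median of 32189360. In a library of that size 1 CPM is about 32.2 reads before TMM scaling. The floxed gene followed the labels, with Dnmt3a at 93.4 to 131 CPM in the 12 WT libraries and 34.5 to 53.9 CPM in the 13 mD3AKO libraries (log2 fold change -1.52, SE 0.07, adjusted p = 1.52e-13, edgeR). The 8 fiber markers summed to between 67356 and 89665 CPM in every library. The library of mouse 15, a rested mD3AKO male, stood apart: 3 genes took 39.5% of its reads, against 15.5 to 20.3% in the other 24. It was the lowest rested mD3AKO library for Igf1, Igf1r, Igfbp3, Igfbp5 and Igfbp6, and without it the minima of that group were 22.2, 23.4, 12.3, 156 and 38.4 CPM. No call on a member for exercise, genotype, interaction or sex changed without it. After TMM scaling its CPM rested on fewer reads. In mouse 15, 1988 reads of Insr made 139 CPM, against 4471 reads for 114 CPM in mouse 7. A gene was called changed at an adjusted p under 0.05 in edgeR's quasi-likelihood test across all genes. In these bulk samples, fewer cells of a type and less RNA per cell cannot be told apart.

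The promoters of both docking protein genes are shown because Irs2 was the member that responded to exercise and Irs1 its closest relative, which did not pass the test. Each run below is the 250 bases before the RefSeq transcription start on mouse build GRCm38.p6, read 5′ to 3′ on the minus strand. Capitals mark the E-box CACGTG, to which basic helix-loop-helix factors bind, and the letters TGTTTTG, the core of an insulin response element to which FOXO factors bind; in Irs1 these overlap by 2 letters.
Irs2 (chr8:11008930-11009179): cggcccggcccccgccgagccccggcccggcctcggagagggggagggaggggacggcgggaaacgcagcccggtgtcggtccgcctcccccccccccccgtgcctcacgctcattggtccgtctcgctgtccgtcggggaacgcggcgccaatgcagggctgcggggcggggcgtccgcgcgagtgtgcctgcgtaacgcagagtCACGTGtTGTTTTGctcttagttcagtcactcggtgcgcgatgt
Irs1 (chr1:82291440-82291689): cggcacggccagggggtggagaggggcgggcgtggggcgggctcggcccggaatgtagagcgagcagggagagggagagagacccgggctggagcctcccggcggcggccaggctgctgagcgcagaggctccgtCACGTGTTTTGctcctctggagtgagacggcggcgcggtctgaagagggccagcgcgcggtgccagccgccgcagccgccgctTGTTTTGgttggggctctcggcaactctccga

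Among the member windows, these 2 genes alone held either element. The Irs2 window had 1 E-box, 44 to 39 bases before the start, and 1 TGTTTTG, 37 to 31 bases before it. In Irs1 the E-box lay 115 to 110 bases before the start, and TGTTTTG occurred at 111 to 105 and at 32 to 26 bases before it. The windows shared the 10-base runs GTCACGTGTT and TGTTTTGCTC, which contain these elements, in the same order and orientation. Of 32851 mouse promoter windows of the same length, searched on both strands, 6.02% held CACGTG and 5.56% held TGTTTTG or its reverse complement CAAAACA. Neither the Irs1 nor the Irs2 window held the cAMP response element TGACGTCA (1.55% of windows), the FOXO site TGTTTAC (3.17%) or the NR4A site AAAGGTCA (1.34%). The shorter cAMP response sequence TGACG (17.8%) occurred in Irs1, at 118 to 114 bases, where it overlaps the E-box, and in the downstream one of 2 Pik3r1 windows. Both windows were rich in CpG, with 34 in Irs2 and 28 in Irs1 against a median of 6. Among the other members, CpG numbered 42 in the window of Igf1r, 32 in Igfbp3, 22 in Igfbp4, 10 in Igfbp5, 7 in Igfbp6, 5 in Igf1, and 30 and 6 in those of Pik3r1. The RefSeq start of Irs2 lies 471 bases before the gene's start in the count table, and that of Irs1 23 bases before it. Sequences matched by symbol for 9 of the 10 members. Insr had no window, so its promoter was not searched.

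**Figure D1:**
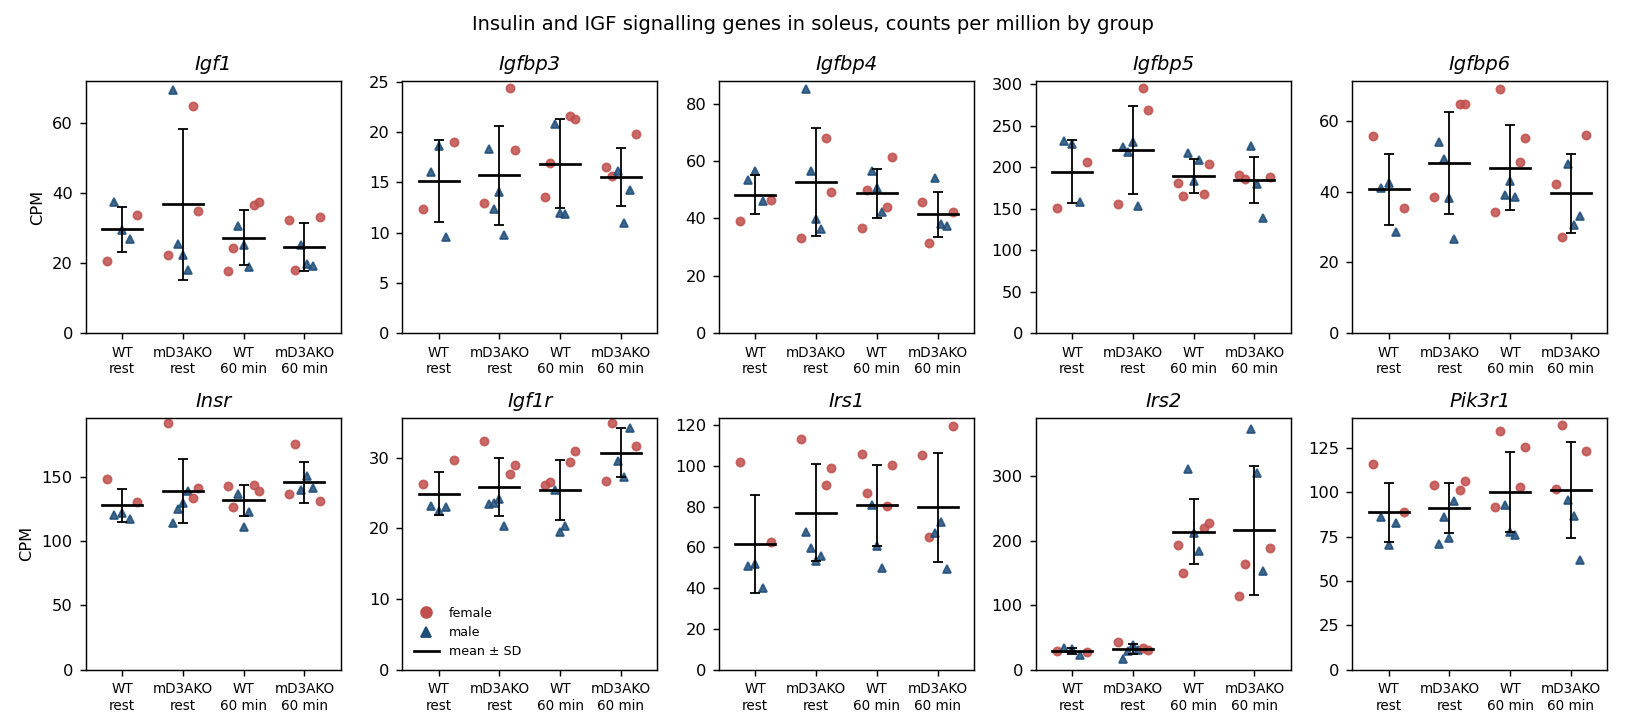
Level of each member in CPM (vertical axes, from 0) in the 4 groups; circles are female and triangles male libraries, and bars give the mean ± SD. Irs2 was the only member whose 13 exercised libraries (lowest 114 CPM) all lay above the 12 rested ones (highest 43.7 CPM).

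Per unit of length, Igfbp6 was the most abundant member, at 39.7 ± 10.9 RPKM (mean ± SD over 25 libraries), followed by Igfbp5 at 32.99 ± 6.30, Irs2 at 20.0 ± 17.0 and Igfbp4 at 10.9 ± 2.72 RPKM. Insr (9.92 ± 1.30), Pik3r1 (9.49 ± 2.00), Irs1 (8.26 ± 2.54), Igfbp3 (5.07 ± 1.28), Igf1 (3.01 ± 1.32) and Igf1r (1.59 ± 0.254 RPKM) completed the order. Each neighbouring pair from Igfbp6 down to Irs1 differed by less than the larger of the 2 SDs. Irs1 and Igfbp3, Igfbp3 and Igf1, and Igf1 and Igf1r differed by more. Insr exceeded Igf1r, the receptor for its sister hormone, 6.30-fold in rested WT, 6.62-fold in rested mD3AKO, 6.41-fold in exercised WT and 5.83-fold in exercised mD3AKO mice on average. Irs2 moved furthest in this order with exercise. It ranked in place 8 of the 10 members in rested WT and 7 in rested mD3AKO muscle, and in place 2 in both exercised groups.

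Exercise raised Irs2, 1 of the 10 members, and no other member passed the test. Across all 16340 genes tested, 10.4% were called for the main effect of exercise, 5.7% higher and 4.69% lower. Irs2 (ENSMUSG00000038894, chromosome 8, 10984681 to 11008458, minus strand, mm10) encodes the docking protein known for rapid transcriptional control. In rested WT muscle it stood at 28.6 and 27.8 CPM in the females and 34.2, 31.4 and 22.3 CPM in the males. Rested mD3AKO libraries ranged from 17.3 through a median of 31.3 to 43.7 CPM. After exercise the WT libraries ranged from 149 through 211 to 311 CPM, and the mD3AKO libraries from 114 through 176 to 373 CPM. Every exercised library was above every rested one in both genotypes, a separation that 1.07% of tested genes showed between rested and exercised libraries. In reads, the rested libraries held 436 to 1489 and the exercised ones 3776 to 11681.

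Irs2 was 7.07-fold higher after exercise (log2 fold change 2.82, SE 0.18, 95% interval 2.46 to 3.19, adjusted p = 1.02e-11 in edgeR's quasi-likelihood test). It had rank 14 by size of increase among 932 genes that rose, of which 190 rose by 1 or more on the log2 scale. Within WT muscle the log2 fold change was 2.89 (SE 0.26, adjusted p = 3.84e-08; 3.59% of genes called), and within mD3AKO muscle 2.76 (SE 0.23, adjusted p = 8.1e-09; 6.02% called). The difference between these responses, mD3AKO minus WT, was -0.13 (95% interval -0.80 to 0.54). This difference was -0.36 without mouse 10 and -0.0056 without mouse 3. The main effect was 2.82 without mouse 15, and between 2.71 and 2.89 when each mouse was left out in turn. An antisense gene, 9530052E02Rik, shares 162 exon bases with Irs2 and held 67 reads in all libraries together, against 100799 for Irs2.

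The rise was 5.52-fold in females (log2 fold change 2.46, SE 0.24) and 8.75-fold in males (3.13, SE 0.21). Exercised females ranged from 114 to 227 CPM and exercised males from 153 to 373 CPM, so the sexes overlapped. At rest the sexes overlapped too, with 27.8 to 43.7 CPM in females and 17.3 to 38.9 CPM in males. The difference between male and female responses was 0.67 (95% interval 0.06 to 1.27), with an unadjusted p of 0.0334 but an adjusted p of 1.00, and 0.046% of genes were called for sex by exercise, so it did not pass the test.

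Irs1, the other main docking protein of muscle, did not follow Irs2. Its rested WT libraries held 102 and 62.9 CPM in the females and 50.9, 51.7 and 40.2 CPM in the males. The medians (and ranges) of the others were 67.5 (53.3 to 113) in rested mD3AKO, 80.9 (50.01 to 106) in exercised WT and 69.6 (49.4 to 119) CPM in exercised mD3AKO muscle. All 4 groups overlapped, and the main effect of exercise was 0.22 on the log2 scale (95% interval -0.12 to 0.57, adjusted p = 0.519), with 0.35 without mouse 1 and 0.15 without mouse 23. A pseudogene on the opposite strand, Gm9747, shares 2822 of the 9144 exon bases of Irs1 and had 0 reads. The strand setting of the counting is not given. The 0 reads therefore cannot show whether reads in the shared bases were counted for Irs1.

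With Irs2 up and Irs1 in the same range, the balance between the docking proteins differed between the states. The ratio of Irs2 to Irs1, in RPKM, was 0.74 ± 0.22 in rested WT (n = 5), 0.64 ± 0.23 in rested mD3AKO (n = 7), 4.04 ± 1.28 in exercised WT (n = 7) and 4.35 ± 2.41 in exercised mD3AKO muscle (n = 6). The highest rested ratio was 1.06 and the lowest exercised ratio 1.57, so the states did not overlap. Irs2 made up 26.99 to 51.3% of the summed Irs1 and Irs2 RPKM in rested libraries and 61.0 to 88.9% in exercised ones. Their sum was 12.6 ± 3.20 RPKM at rest (n = 12) and 42.7 ± 11.51 RPKM after exercise (n = 13). Among exercised libraries the ratio was 2.83 ± 0.83 in females and 5.75 ± 1.24 in males, and the ranges, 1.57 to 3.94 and 4.47 to 8.04, did not overlap. At rest it was 0.52 ± 0.09 in females and 0.80 ± 0.22 in males, and the ranges, 0.40 to 0.64 and 0.37 to 1.06, overlapped. These ratios are given as a description, with no test of their own. Any reads of Irs1 left uncounted in the bases it shares with Gm9747 would make all of them too high.

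**Figure D2:**
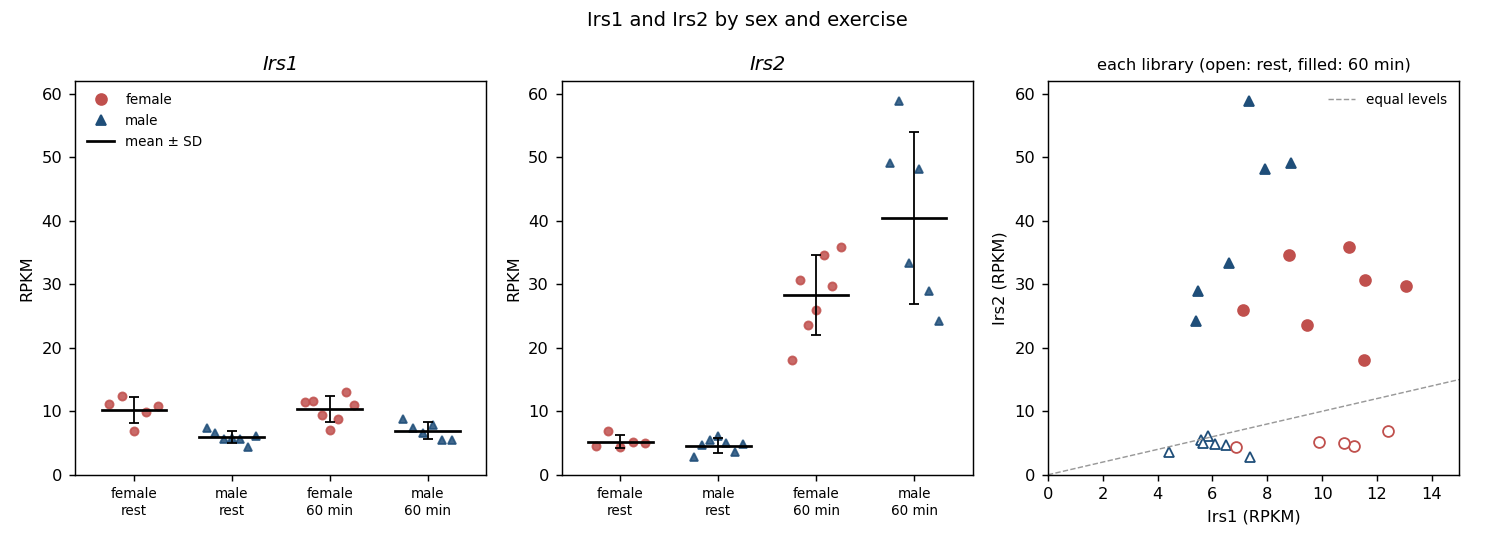
Irs1 and Irs2 in RPKM by sex and state (left and middle; bars are the mean ± SD) and the pair in each library (right; open symbols rest, filled 60 min after exercise, dashed line equal levels, axes not on the same scale). Irs1 was lower in males in both states, and the exercised libraries all lay above the line of equal levels, with Irs2 to Irs1 ratios from 1.57 to 8.04.

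Neither receptor passed the test for exercise. Insr, the insulin receptor, held 149 and 131 CPM in the rested WT females and 120, 122 and 117 CPM in the males. It ranged from 114 to 192 CPM in rested mD3AKO (median 133), from 111 to 144 in exercised WT (median 136) and from 131 to 175 in exercised mD3AKO muscle (median 140). The groups overlapped, and the main effect of exercise was 0.05 (95% interval -0.09 to 0.20, adjusted p = 0.744), 0.942-fold to 1.15-fold, and it was 0.02 without mouse 6 and 0.10 without mouse 2. Igf1r, the type 1 IGF receptor, held 26.3 and 29.6 CPM in rested WT females and 23.2, 22.4 and 23.1 CPM in the males. Its medians and ranges were 24.1 (20.4 to 32.4) in rested mD3AKO, 26.1 (19.4 to 30.9) in exercised WT and 30.6 (26.7 to 34.9) CPM in exercised mD3AKO muscle, the highest group. The exercise effect on Igf1r was 0.14 (95% interval -0.03 to 0.30, adjusted p = 0.349). In mD3AKO mice alone it was 0.25 (unadjusted p 0.0341, adjusted p = 0.232), and in WT mice alone 0.03 (adjusted p = 0.987). Between exercised mice, mD3AKO minus WT was 0.27 (95% interval 0.04 to 0.50, unadjusted p 0.0216, adjusted p = 0.796, edgeR). None of these passed the test.

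Pik3r1, which encodes the p85 alpha, p55 alpha and p50 alpha regulatory subunits, gave an exercise effect of 0.16 (95% interval -0.08 to 0.40, adjusted p = 0.485), or 0.10 without mouse 6. Its rested WT libraries held 116 and 88.9 CPM in females and 86.3, 70.5 and 82.8 CPM in males. The medians of the other groups were 95.3 in rested mD3AKO, 92.7 in exercised WT and 99.0 CPM in exercised mD3AKO muscle, with 61.7 and 138 CPM as the lowest and highest values, both among exercised mD3AKO mice. High and low values thus stood side by side within 1 group. The lowest was from a male, mouse 19, and the highest from a female, mouse 6. Pik3r1 was also called for sex, as described below.

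Igf1, the ligand that muscle makes for local use, had the highest coefficient of variation of the members in rested mD3AKO muscle, 58.4%. Rested WT libraries held 20.8 and 33.8 CPM in females and 37.6, 29.4 and 27.02 CPM in males. Rested mD3AKO libraries ranged from 18.1 through 25.5 to 69.4 CPM, with mouse 7 (69.4) and mouse 21 (65.1) above all of the other 23 libraries, the next of which was at 37.6 CPM. Exercised WT libraries ranged from 17.8 through 25.2 to 37.6 and exercised mD3AKO libraries from 18.0 through 22.5 to 33.2 CPM. The exercise effect was -0.35 (95% interval -0.77 to 0.06, adjusted p = 0.334), and it was -0.24 without mouse 7. In mD3AKO mice alone it was -0.59 with an adjusted p of 0.27, and in WT mice alone -0.12 with an adjusted p of 0.971.

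None of the 4 binding proteins passed the test for exercise. Igfbp5, a binding protein that muscle cells secrete as they differentiate, was at 150 and 206 CPM in rested WT females and 231, 228 and 158 CPM in males. It reached a median of 225 (153 to 296) in rested mD3AKO, 184 (165 to 218) in exercised WT and 187 (139 to 225) CPM in exercised mD3AKO muscle. Its exercise effect was -0.15 (95% interval -0.36 to 0.06, adjusted p = 0.446), although 12 of 13 exercised libraries lay under the rested median. Igfbp4, a binding protein that mostly restrains IGFs and is cleaved by the protease PAPP-A, gave -0.17 (95% interval -0.43 to 0.10). Igfbp3, the main carrier of IGFs in blood, gave 0.07 (95% interval -0.23 to 0.36). Igfbp6, which prefers IGF-2, gave -0.04 (95% interval -0.35 to 0.26). The adjusted p of these 3 were 0.525, 0.877 and 0.935. Without mouse 15 the effects were -0.20 in Igfbp4, 0.03 in Igfbp3 and -0.09 in Igfbp6. Igfbp4 gave -0.09 without mouse 7, and Igfbp3 gave 0.0014 without mouse 14 and 0.14 without mouse 21. Over all libraries Igfbp4 ranged from 31.3 to 85.3 CPM, Igfbp3 from 9.60 to 24.4 CPM and Igfbp6 from 26.6 to 69.2 CPM, with rested and exercised libraries overlapping for each.

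No member was called for genotype. The 10 genotype effects, mD3AKO minus WT, lay between -0.05 (Igfbp4) and 0.16 (Igf1r) on the log2 scale. The Igfbp4 value was -0.13 without mouse 7 and -0.012 without mouse 2. edgeR called 0 of 10 and DESeq2 called 0, where 0.269% of all genes were called by edgeR. At an unadjusted p under 0.05 were 0 of 10, where 1018 of 16340 genes were. Igf1r (0.16, 95% interval -0.0041 to 0.33, unadjusted p 0.0555, adjusted p = 0.822) and Insr (0.13, interval -0.01 to 0.28, unadjusted p 0.0638, adjusted p = 0.84) came nearest. The Insr value was 0.08 without mouse 2, its highest library. The widest interval among the docking proteins was that of Irs1, from -0.19 to 0.50, whose value of 0.15 was 0.28 without mouse 1 and 0.08 without mouse 23. For Irs2 the effect was 0.08 (interval -0.25 to 0.42). For the interaction, mD3AKO minus WT exercise response, 0 members were called by edgeR or by DESeq2 and 0 had an unadjusted p under 0.05, where 0% of all genes were called and 403 genes had an unadjusted p under 0.05. The interaction estimates ran from -0.49 in Igfbp6 (interval -1.1 to 0.12) to 0.22 in Igf1r (interval -0.11 to 0.55).

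**Figure D3:**
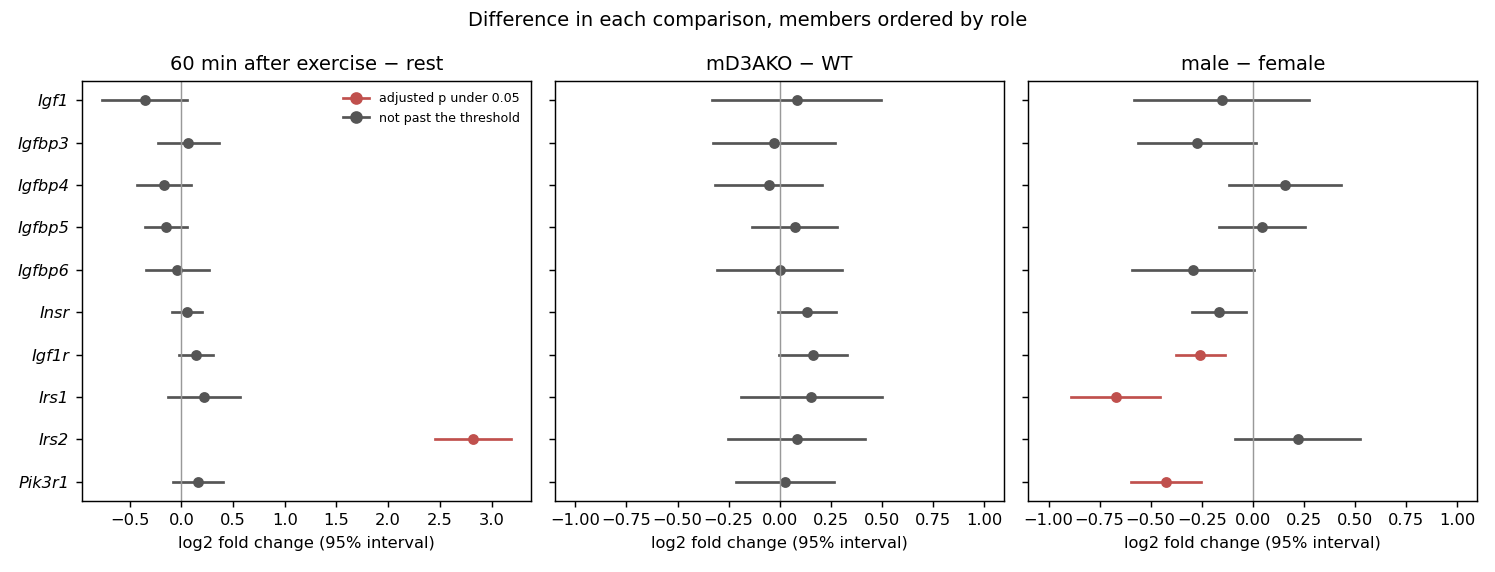
Log2 fold change of each member (points) with its 95% interval (lines) for exercise, genotype and sex; red marks an adjusted p under 0.05, and the exercise panel has a wider axis than the others. Irs2 rose with exercise (2.82), no member was called for genotype, and Igf1r, Irs1 and Pik3r1 were lower in males.

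Sex set apart members that had not passed the test for exercise. In a fit with 8 groups of sex, genotype and state, 3 of 10 members were called, all lower in males, where 8.15% of 17389 genes were called and 2.79% were lower in males. Irs1 (chromosome 1, 82233101 to 82291416, minus strand) had the largest difference of the 10. Its females ranged from 62.9 through a median of 99.6 to 119 CPM and its males from 40.2 through 55.6 to 80.9 CPM, and none of the 13 males reached the female median. The log2 difference, male minus female, was -0.67 (SE 0.11, 95% interval -0.89 to -0.45, adjusted p = 0.000313, edgeR), or 0.628-fold. Pik3r1 (chromosome 13, 101680563 to 101768217, minus strand) was 0.745-fold in males (log2 -0.43, SE 0.08, adjusted p = 0.00264), with females from 88.9 to 138 CPM and males from 61.7 to 96.0 CPM. Of 13 males, 10 lay below every female. Igf1r (chromosome 7, 67952827 to 68233668, plus strand) was 0.837-fold in males (log2 -0.26, SE 0.06, adjusted p = 0.00733), with females from 26.1 to 34.9 and males from 19.4 to 34.2 CPM. Here too 10 of 13 males lay below every female, while 1 male, mouse 19, was second only to the highest female. All 3 calls held without mouse 15.

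The remaining members did not pass the test for sex. Insr differed by -0.17 (95% interval -0.30 to -0.03, adjusted p = 0.115), Igfbp6 by -0.29 (interval -0.59 to 0.01), Igfbp3 by -0.27 (interval -0.56 to 0.01) and Igf1 by -0.15 (interval -0.58 to 0.28). Irs2, the relative of Irs1, had a male minus female difference of 0.22 (interval -0.09 to 0.53, adjusted p = 0.413) averaged over rest and exercise. Igfbp4 differed by 0.16 (interval -0.12 to 0.43) and Igfbp5 by 0.04 (interval -0.17 to 0.25). Without mouse 7 the Igfbp4 difference was 0.07. That of Igf1 was -0.32 without mouse 7 and -0.04 without mouse 21. Fiber markers moved with sex in the same libraries. Of 8 fiber markers 7 were called, named here after their values were seen, with the slow-fiber genes Myh7 (-0.49), Tnni1 (-0.38), Tnnt1 (-0.35) and Myl2 (-0.35) lower and Myh2 (0.31), Ckm (0.32) and Mb (0.27) higher in males. Their part in the sex differences of Irs1, Pik3r1 and Igf1r was not tested.

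Sex also went with the numbering of the mice, since females were numbered 1 to 6 and 20 to 25 and males 7 to 19. The labels do not say what the numbers stand for. Irs1 was at 96.3 ± 17.6 CPM in females 1 to 6, 92.1 ± 19.3 in females 20 to 25 and 58.4 ± 11.1 in males. Pik3r1 was at 114 ± 18.8, 108 ± 14.0 and 81.3 ± 10.5 CPM in the same order. Against females 1 to 6 alone, males differed by -0.77 in Irs1 (adjusted p = 0.002) and -0.48 in Pik3r1 (adjusted p = 0.026, edgeR). Against females 20 to 25 alone, they differed by -0.61 (adjusted p = 0.0036) and -0.38 (adjusted p = 0.0265). Igf1r differed by -0.25 against the first run, where its call was lost (adjusted p = 0.0789), and by -0.28 against the second (adjusted p = 0.0167). Insr gave -0.29 against the first run (adjusted p = 0.0255) and -0.06 against the second (adjusted p = 0.598). The female runs themselves did not overlap in 2 of 10 members, where 3.41% of genes did not. Igf1 ran from 17.8 to 32.5 CPM in females 1 to 6 and from 33.2 to 65.1 in females 20 to 25. Igfbp3 ran from 12.3 to 16.9 and from 18.2 to 24.4 CPM. The male minus female difference of Igf1 was 0.30 against females 1 to 6 and -0.45 against females 20 to 25, and that of Igfbp3 0.02 and -0.49, none of them called.

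**Figure D4:**
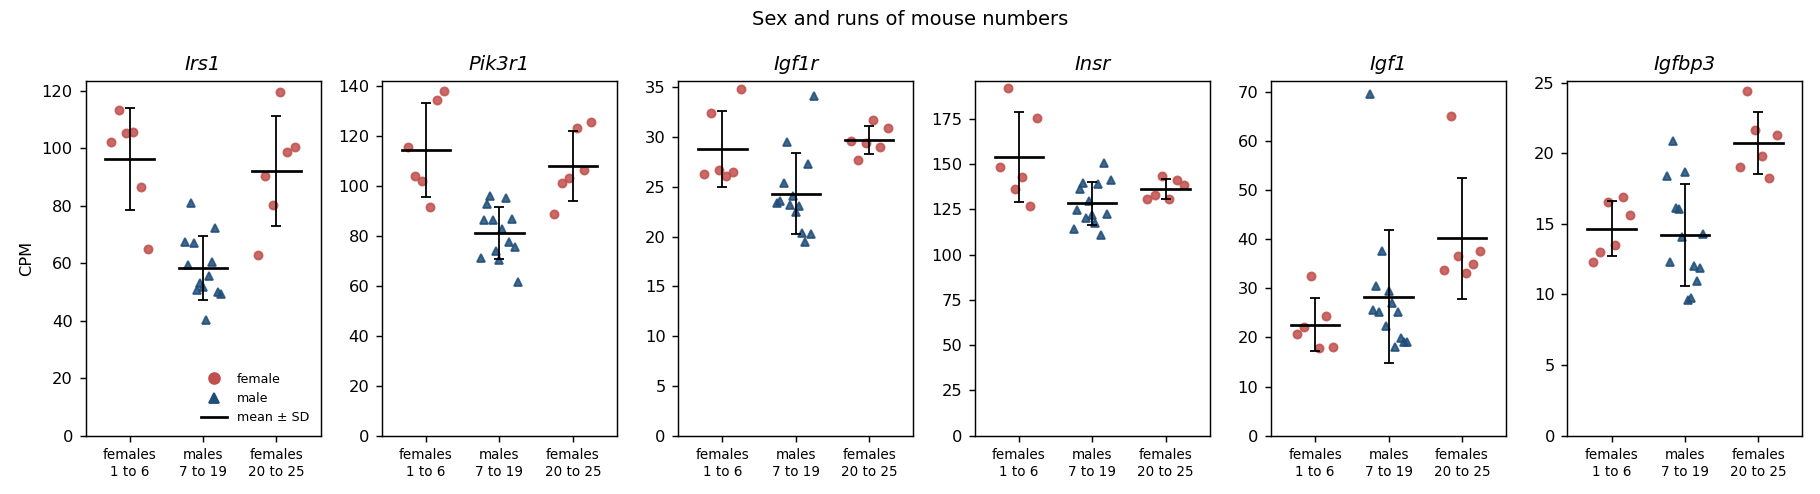
CPM (vertical axes, from 0) of 6 members by run of mouse numbers; circles are females, triangles males, and bars the mean ± SD. For Irs1 and Pik3r1 both female runs had means above that of the males (96.3 and 92.1 against 58.4, and 114 and 108 against 81.3 CPM), whereas Igf1 and Igfbp3 separated the female runs from each other.

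The secreted members varied together with fibroblast markers and, for several of them, with markers of other non-fiber cells. The summed level of 9 fibroblast markers ranged from 1169 to 5664 CPM, with mouse 7 (5664), mouse 21 (3817) and mouse 24 (3448), all rested mD3AKO, at the top. Mice 7 and 21 were also highest for Igf1 and for Igfbp4, and mice 21 and 24 were highest for Igfbp5. Over the 25 libraries, which share no animal but differ in depth and composition, the Pearson correlation of log2 levels with the fibroblast sum was 0.853 for Igf1, 0.837 for Igfbp4, 0.766 for Igfbp6, 0.678 for Igfbp5 and 0.663 for Igfbp3. Within the 4 groups these were 0.841, 0.845, 0.781, 0.644 and 0.722. For Irs2 the same correlation was -0.273, and within groups -0.160. Irs2 had -0.573 with endothelial markers and -0.596 with satellite cell markers, which within groups were 0.369 and 0.243. With pericyte and smooth muscle markers Irs2 had 0.169, and 0.548 within groups. With the summed fiber markers Igf1 and Igfbp4 had correlations of -0.724 and -0.835. With the 6 adipocyte markers the correlations were 0.731 for Igfbp3, 0.591 for Igf1, 0.570 for Igfbp4, 0.447 for Igfbp6 and 0.420 for Igfbp5. Within groups these were 0.758, 0.732, 0.644, 0.501 and 0.579. The adipocyte sum ranged from 33.6 to 204 CPM in females 1 to 6 and from 102 to 561 CPM in females 20 to 25. Medians in the same 2 runs were 1616 and 2816 CPM for fibroblast and 38.1 and 198 for Schwann cell markers. They were 119 and 190 for immune and 488 and 574 for endothelial markers. Fiber markers went the other way, with medians of 82369 and 76958 CPM. With the 8 immune markers the correlations were 0.692 for Igf1, 0.729 for Igfbp4, 0.678 for Igfbp6, 0.462 for Igfbp3 and 0.261 for Igfbp5. With the 5 tendon markers they were 0.648, 0.505, 0.764, 0.548 and 0.484 in the same order. With the endothelial markers they were 0.486, 0.304, 0.215, 0.420 and 0.445 in this order, and within groups 0.4265, 0.247, 0.272, 0.696 and 0.399. With the blood markers they were 0.458, 0.516, 0.348, 0.291 and 0.268, and within groups 0.4965, 0.558, 0.389, 0.301 and 0.312. Insr, not a secreted member, had -0.564 with the blood markers. The part of fibroblasts, adipocytes, immune, tendon, endothelial or blood cells in the levels of these members was not tested. None of the 9 fibroblast markers was called for exercise by edgeR, and 1 was called by DESeq2. In edgeR 3 of the 9 had an unadjusted p under 0.05, where 3488 of 16340 genes did. Their median log2 fold change was -0.37 beside a median of -0.0009 over all genes.

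**Figure D5:**
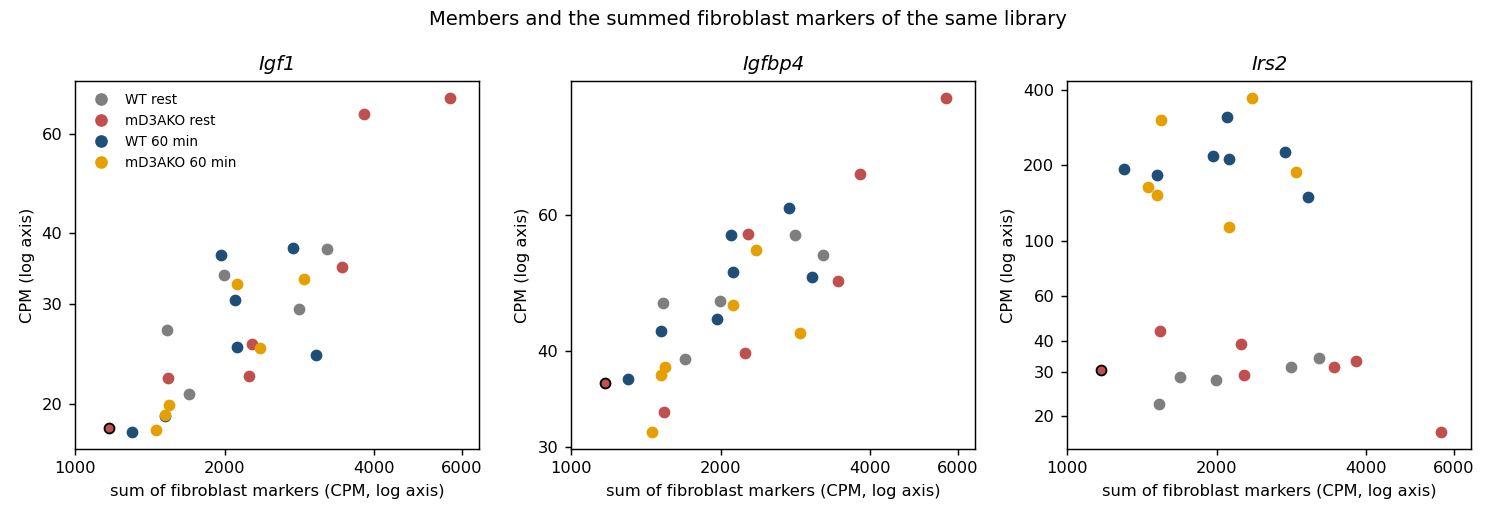
Igf1, Igfbp4 and Irs2 (CPM, log axes) against the summed CPM of 9 fibroblast markers (log axis) in each of the 25 libraries, coloured by group, with the library of mouse 15 outlined in black. Igf1 and Igfbp4 followed the fibroblast sum (correlation 0.853 and 0.837), and Irs2 had a correlation of -0.273 with it. Exercised libraries spanned 1304 to 3055 CPM of the sum and rested ones 1169 to 5664 CPM.

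Markers of some other cell types were called for exercise, beside 4.69% of all genes lower and 5.7% higher. Of 10 endothelial markers, 6 fell and 1 rose, and their sum ranged from 509 to 677 CPM at rest and from 442 to 570 after exercise. Of 5 satellite cell markers 2 fell, of which Pax7 (-0.45 for exercise) was also higher in mD3AKO muscle (0.48, adjusted p = 0.0384, edgeR) and lower in males (-0.30), and of 7 pericyte and smooth muscle markers 1 fell. No fiber, tendon, immune, adipocyte, Schwann cell or blood marker was called for exercise by edgeR or DESeq2. Of these, 0 had an unadjusted p under 0.05, where 3488 of 16340 genes did. None of the marker sums separated rested from exercised libraries as Irs2 did, and their part in its rise was not tested. By sex, 0 Schwann cell, 0 blood and 0 tendon markers were called. At an unadjusted p under 0.05 in edgeR were 5 of 5, 3 of 5 and 3 of 5 of them, where 3897 of 17389 genes were. Their median differences were -0.76, 0.52 and -0.34.

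Igf1 correlated with all 4 binding proteins across libraries. Igf1 and Igfbp4 had the highest correlation of log2 CPM (0.829), followed by Igf1 and Igfbp3 (0.706). Igf1 gave 0.605 with Igfbp5 and 0.590 with Igfbp6. Among the other members the highest were Insr and Igf1r (0.693) and Irs1 and Pik3r1 (0.673). Among 12677 other genes with a mean of at least 0 on the log2 CPM scale, those whose pattern over 25 libraries was most like Irs2 were Impact (0.972), BB123696 (0.966) and Tinagl1 (0.966), all 3 higher after exercise (1.73, 3.39 and 1.38 on the log2 scale). Within groups their correlations with Irs2 were 0.589, 0.692 and 0.573. None of these correlations, within groups or not, removed differences between the sexes, and Irs1, Pik3r1 and Igf1r were called lower in males. The genes most like Irs1 were Ddx3x (0.862), Npr3 (0.842) and Cp (0.825). For Igf1 they were C1s1 (0.930), Epb41l3 (0.919) and Adamts12 (0.915), and for Igfbp4 Cpxm1, Bmp1 and Nid1 (0.908, 0.902 and 0.890). For Igfbp6 they were Rcn3, Serpinf1 and Olfml3 (0.896, 0.894 and 0.893), for Igfbp3 Parva, Tacc1 and Cavin3 (0.886, 0.883 and 0.878) and for Igfbp5 Ago1, Coro7 and Col6a6 (0.824, 0.801 and 0.800). Insr was most like Ank3, Uggt1 and N4bp1 (0.890, 0.850 and 0.837), Igf1r most like 2900026A02Rik, Trio and Ep400 (0.883, 0.825 and 0.824), and Pik3r1 most like Lrrc75a, Rttn and Frem2 (0.811, 0.805 and 0.797).

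Around the members, 71 further tested genes of the pathway fell into 5 lists, of which 8 were called for exercise, 7 higher and 1 lower, beside the 10.4% of all genes. Of 10 other ligands, receptors and binding proteins 1 rose, Stc1 (log2 fold change 1.21, adjusted p = 7.85e-05), a secreted inhibitor of PAPP-A at 0.931 ± 0.506 CPM at rest and 2.20 ± 0.612 CPM after exercise. Ins1, Ins2, Insrr and Igfbp1 had too few reads to be tested, with at most 3 in any library. Of 13 other adaptors and PI3-kinase subunits 1 fell, Pik3r2, the p85 beta regulatory subunit, from 21.3 ± 1.57 to 17.0 ± 1.94 CPM (log2 fold change -0.33, adjusted p = 0.000115). Irs4, a further docking protein, was not tested, with at most 12 reads.

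Of 23 genes of the AKT, mTORC1 and FOXO branch 4 rose and 0 fell. Foxo1 went from 14.5 ± 1.46 to 34.3 ± 8.51 CPM (log2 fold change 1.25, adjusted p = 3.13e-09), with no overlap between rested and exercised libraries. Foxo3 rose from 50.03 ± 9.51 to 70.0 ± 11.9 CPM (0.50, adjusted p = 0.00122). Rheb, the GTPase that activates mTORC1, rose by 0.21 (adjusted p = 0.000753) and Rictor, a core subunit of mTORC2, by 0.17 (adjusted p = 0.0324). Of 10 genes of the RAS and ERK branch 0 were called by edgeR or DESeq2. At an unadjusted p under 0.05 were 2 of the 10, where 3488 of 16340 genes were. Of 15 inhibitors and phosphatases 2 rose. Ddit4 (REDD1), which restrains mTORC1, went from 9.02 ± 3.69 to 51.8 ± 12.2 CPM without overlap (2.48, adjusted p = 1.35e-10), and the pseudokinase gene Trib1 from 26.3 ± 4.65 to 55.6 ± 26.7 CPM (1.09, adjusted p = 0.000348). Adjusted p are from edgeR's quasi-likelihood test over all genes, and CPM are means ± SD over 12 rested and 13 exercised libraries.

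No gene of the 5 lists was called for genotype or for the interaction by edgeR or DESeq2. At an unadjusted p under 0.05 were 3 and 2 of 71, where 1018 and 403 of 16340 genes were. By sex 12 of 71 were called, beside 8.15% of all genes. These genes are named here after their values were seen. Lower in males were Pappa (-0.79), Igfals (-0.78), Stc2 (-0.68), Socs2 (-0.63), Grb10 (-0.52), Foxo3 (-0.39) and Pik3ca (-0.30), and higher were Grb14 (0.79), Trib1 (0.58), Ptpn11 (0.35), Inppl1 (0.19) and Hras (0.16). Pik3ca, the catalytic p110 alpha subunit, was thus lower in males along with its regulatory partner Pik3r1. The adaptors Grb10 and Grb14, which both dampen receptor signalling, differed in opposite directions. Calls are by edgeR, adjusted over all genes.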

How the data were processed

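RNA from a single soleus per mouse was sequenced (75-base paired-end reads, stranded total RNA libraries after ribosomal RNA removal). The authors deposited 1 table of gene counts, whole reads per GENCODE gene and not normalized, made per the submitters' processing notes with FastQC 0.11.5, STAR 2.5.3a and featureCounts 1.5.3 on mm10. The strand setting of the counting is not given in the sources used here. All 25 count columns were mapped to mice by name, with groups and sex from the labels.

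Genes with low counts were removed with filterByExpr (at least 10 reads, total 15), which left 16340 genes for the 4 groups and 17389 for the 8 groups that include sex. TMM factors and edgeR 4.0.16 quasi-likelihood F tests (R 4.3.3) gave log2 fold changes, SE and p, adjusted by Benjamini-Hochberg over all genes tested and called under 0.05. Main effects average over the other factor. The fit was tested on simulated data. Levels are CPM with TMM-scaled library sizes, and RPKM divides them by the table's exon length. Precision follows depth, about 32.2 reads per CPM at the median library before TMM scaling.

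Alternatives were DESeq2 1.42.0, relative log expression factors, no filter, terms for sex or runs of mouse numbers, 8 groups, and each mouse left out. The comparisons of males with 1 run of females, and the alternatives for the members by sex, were chosen after seeing the data. The members and gene lists were chosen with earlier results of these data known. Named genes were all members, up to 4 called genes of each pathway list with the largest exercise change, any of those lists called for genotype or interaction, the 3 genes most correlated with each member, and Dnmt3a. Genes called by sex and marker genes were named outside this rule, after their values were seen. Promoter sequences are from RefSeq (GRCm38.p6), matched by symbol.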

Additional observations from a re-analysis of the deposited data

Results flagged for a closer look

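Insr in the rested mD3AKO female mouse 2 stood at 191.81 CPM, far above the other 6 libraries of its group relative to their range. It was the single value marked in this way among 44 groups of member values examined, and chance marks about 1 in 20 groups.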

How the results depend on the processing

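No paired analysis was possible because each mouse has a number of its own. Irs2 was the 1 member called for exercise under every alternative run, with log2 fold changes of 2.71 to 2.89 as each mouse was left out, and no member was called for genotype or interaction under any. Irs1, Pik3r1 and Igf1r kept their calls for sex with each mouse left out. Igf1r lost its call and Insr gained one against females 1 to 6 alone (-0.25 and -0.29). Insr was also called without mouse 21, where its values over mice left out ran from -0.20 to -0.12.

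Of counts over all genes, those called for genotype (44) became 81 with DESeq2, 72 with a sex term and 97 with a term for runs of mouse numbers. Those for sex by exercise (8) became 23 without a filter, and 3 to 17 with a mouse left out. Those for sex (1418) became 647 against females 1 to 6 alone, and 834 (without mouse 20) to 1740 (without mouse 7) with a mouse left out. The cause was not tested.

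Values that changed sign were, for genotype, Igfbp6 with DESeq2 (-0.00074), without a filter (-0.0022) and with the term for runs (-0.0069). For the interaction they were Pik3r1 with a sex term (0.014), 8 groups (0.013) and the term for runs (0.0020). For sex, Igf1 went from -0.15 to 0.30 and Igfbp3 from -0.27 to 0.022 against females 1 to 6, and Igfbp5 -0.074 against females 20 to 25. With a mouse left out, ranges that crossed 0 were -0.10 to 0.030 for Igfbp6 by exercise. By genotype they were -0.034 to 0.13 for Igf1, -0.031 to 0.15 for Irs2, -0.096 to 0.019 for Igfbp3, -0.065 to 0.071 for Igfbp6 and -0.029 to 0.085 for Pik3r1. By interaction they were -0.037 to 0.12 for Insr and -0.14 to 0.088 for Pik3r1, and by sex -0.012 to 0.10 for Igfbp5. None of these was called in any setting. Sex and the run of mouse numbers cannot be told apart for the males.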
